A study of Mus musculus with 11 samples.

Results

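The genes described here are named as subunits of the mitochondrial respiratory chain and of ATP synthase. They were chosen by name, as the gene symbols that begin with Ndufa, Ndufb, Ndufc, Ndufs or Ndufv and a number, Uqcr, Cox4 to Cox8 or Atp5, the 4 symbols Sdha, Sdhb, Sdhc and Sdhd, and the mitochondrially encoded mt-Nd, mt-Co, mt-Atp and mt-Cytb genes, without names that mark pseudogenes (-ps). This gave 103 of the 54513 genes in the deposited table, 90 encoded in the nucleus and 13 in the mitochondrial genome (mtDNA). Of the nuclear genes, 40 were counted in complex I, 4 in complex II, 8 in complex III, 21 in complex IV and 17 in complex V. Ndufa4 and Ndufa4l2 were placed in complex IV. The GENCODE annotation types Ndufs6b, Ndufb4c and Ndufa11b, counted in complex I, and Cox6c2, counted in complex IV, as processed pseudogenes. Of the mitochondrially encoded genes, 7 belong to complex I, 1 to complex III, 3 to complex IV and 2 to complex V. A filter on low counts passed 89 of the 103, namely 81 nuclear and 8 mitochondrially encoded genes. The processed pseudogenes did not pass it.

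Polyadenylated RNA of the mouse colon epithelium was sequenced, after lymphocytes had been taken out of the cell suspension with 40% Percoll (a density medium). The groups were DKO mice, which lack the microRNA clusters miR-181a1-b1 and miR-181a2-b2, after DSS (n = 3), wild-type (WT) mice after DSS (n = 3), DKO mice at baseline (n = 3) and WT mice at baseline (n = 2). DSS (dextran sulphate sodium) injures the colonic epithelium, and was given at 2% for 7 days with 2 days of recovery. The labels name no promoter or cell type that limits the deletion. Strain, age and the number of mice behind a library are not stated there.

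As background, the respiratory chain passes electrons from NADH (complex I) and succinate (complex II) through complex III to oxygen at complex IV, and ATP synthase (complex V) uses the proton gradient this makes. Complexes I, III, IV and V are built from subunits of both genomes, and complex II from nuclear genes alone. Colonocytes rely on this chain to oxidise butyrate made by the gut bacteria. The mitochondrially encoded subunits are read from long transcripts of the 2 mtDNA strands that are then cut at the transfer RNAs between the genes, while each nuclear subunit has its own promoter.

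Libraries held 41631951 to 52761900 counts. CPM below are counts scaled to a common library size with edgeR's TMM factors, and a gene is called where edgeR's quasi-likelihood test gave an adjusted p under 0.05 over the 19267 genes tested. The nuclear members held 1.09 to 1.88% of a library's counts and the mitochondrially encoded members 5.38 to 9.54%. The epithelial genes Epcam, Krt8 and Vil1 were high in all groups, with Epcam averaging 1176, 1381, 1539 and 1481 CPM in DSS DKO, DSS WT, baseline DKO and baseline WT. The ribosomal RNA entry Rn18s-rs5 took 23.0% and 8.46% of the counts of baseline DKO replicates 1 and 2, and 0.128 to 1.59% elsewhere. Every DSS library had a female pattern of sex-linked genes (Xist at 633 to 906 CPM and Ddx3y at 0.162 to 0.895 CPM). Every baseline library had a male one (Xist at 6.75 to 14.5 CPM and Ddx3y at 42.6 to 54.9 CPM). The treatment and the sex thus cannot be told apart in the comparisons of DSS with baseline, or in the interaction of genotype and DSS. Nnt, a gene of the inner mitochondrial membrane known to differ between C57BL/6 substrains, was at 47.6 to 52.8 CPM in DSS DKO, 23.3 to 25.6 CPM in DSS WT, 59.96 to 80.55 CPM in baseline DKO and 25.9 to 27.1 CPM in baseline WT. Whether the genotypes also differ in strain background, and its part in the genotype comparisons, was not tested. In bulk samples, fewer cells of a type and less RNA per cell cannot be told apart either.

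The 13 mitochondrially encoded genes fell into an abundant and a nearly uncounted set. mt-Co1, the catalytic subunit of complex IV, was the most abundant, with 50118, 53164 and 64753 CPM in DSS DKO, 44296, 68075 and 56026 CPM in DSS WT, 42191, 49246 and 50316 CPM in baseline DKO, and 41939 and 46314 CPM in baseline WT. mt-Cytb, the one mitochondrially encoded subunit of complex III, and mt-Nd1, a membrane subunit of complex I, came next. Per kilobase of exon, mt-Co1 averaged 33330 CPM over all libraries, mt-Cytb 9767, mt-Nd1 6878, mt-Nd5 2373, mt-Nd2 2313, mt-Nd4 1772 and mt-Nd6 1265. In contrast, mt-Co2 had 12 counts over all 11 libraries, mt-Co3 26, mt-Atp6 10, mt-Atp8 2, mt-Nd4l 3 and mt-Nd3 381, although these genes lie between mt-Co1 and mt-Nd4 on the same strand.

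The nearly uncounted genes have near-identical copies on chromosome 1. GENCODE annotates 7 pseudogenes there, on the minus strand between positions 24611535 and 24616197 of GRCm38, in the order of the mitochondrial genes. Gm28661 matches 681 bases of mt-Co2 at 100% identity, Gm10925 matches 678 bases of mt-Atp6 at 100%, Gm28437 matches 783 bases of mt-Co3 at 100% and Gm10222 matches 294 bases of mt-Nd4l at 100%. Gm28438 matches 345 bases of mt-Nd3 with 1 mismatch (99.7%). The copies reach into the better counted neighbours as well, since Gm28439 matches 876 bases of mt-Nd4 at 100% and Gm29216 matches the last 492 bases of mt-Co1 with 6 mismatches (98.8%). In 5 of the 6 gaps between neighbouring copies the number of bases is the same as on the mitochondrial genome. One of these is the gap of 233 bases between Gm28661 and Gm10925, where the mitochondrial genome holds mt-Atp8 in part, for which no copy is annotated. How the authors counted reads that match more than 1 place is not given in the sources used here, so the levels of these genes are not read as their expression.

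The following stretches of 60 bases show how such a read looks, from the GENCODE transcripts. The mt-Co2 stretch lies at chrM:7323-7382 and its copy in Gm28661 at chr1:24615196-24615255 (minus strand), and they are the same at every base. The mt-Co1 stretch at chrM:6381-6440 and its copy in Gm29216 at chr1:24616138-24616197 (minus strand) hold all 6 mismatches of that pair, which are in capitals.
mt-Co2: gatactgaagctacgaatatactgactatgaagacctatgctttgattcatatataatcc
Gm28661: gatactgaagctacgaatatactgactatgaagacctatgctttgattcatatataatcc
mt-Co1: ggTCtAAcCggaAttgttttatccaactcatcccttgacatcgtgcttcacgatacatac
Gm29216: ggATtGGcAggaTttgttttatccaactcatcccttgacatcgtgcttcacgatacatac

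The share of a gene's 50-base stretches that also occur in an annotated nuclear gene was near 100% in most of the nearly uncounted genes. It was 100% in mt-Co2, 99.9% in mt-Co3, 99.5% in mt-Atp6, 98.8% in mt-Nd4l and 98.0% in mt-Nd3, the set with at most 381 counts. It was 62.2% in mt-Nd4 and 51.1% in mt-Co1, 8.19% in mt-Nd2 and 7.60% in mt-Nd5, and 0 in mt-Nd1, mt-Nd6 and mt-Cytb. mt-Atp8, with 2 counts, had a share of 0. Among the well counted genes the share did not follow the counts, since mt-Co1 had the most counts (27395946) and mt-Nd6, with a share of 0, the fewest (338939). The copies themselves held between 82 counts (Gm28438) and 17285 counts (Gm29216) over all libraries.

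**Figure D1:**
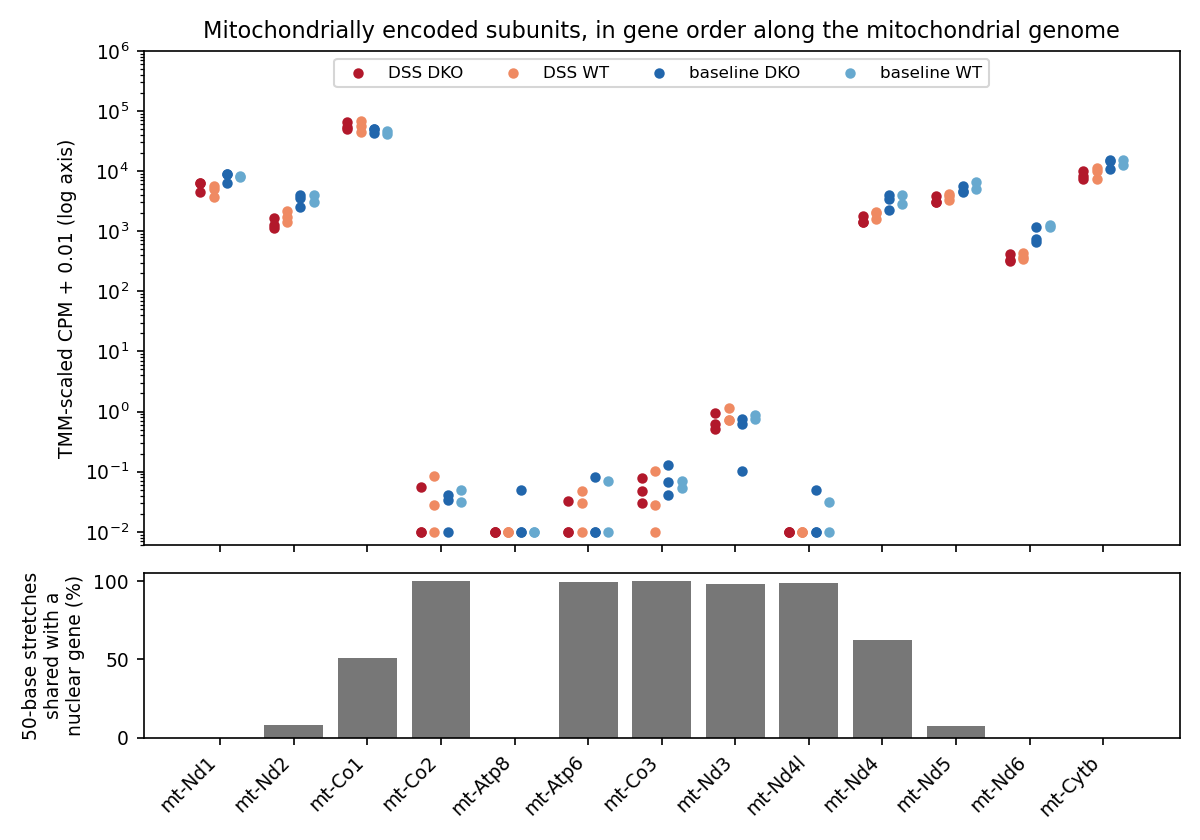
TMM-scaled CPM plus 0.01 on a log axis for the 13 mitochondrially encoded genes, 1 point per library, with the share of 50-base stretches found in a nuclear gene below as bars. mt-Co1 lies between 41939 and 68075 CPM in all libraries, mt-Nd2, mt-Nd4 and mt-Nd6 are lower in the DSS libraries than in the baseline libraries, and the genes with bars near 100% lie near or under 1 CPM.

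Among the 85 nuclear members with a length in the annotation, levels per length spanned a wide range. Atp5pb, Atp5o, Atp5md, Ndufb1 and Ndufb11b had no length under these symbols and are not ranked. A length joins the exons of all transcripts of a gene, so it can exceed that of the main transcript. Cox6a1, a complex IV subunit, was highest at 820 CPM per kilobase over all libraries, followed by Atp5a1 (643) and Atp5b (508), which form the catalytic head of ATP synthase, Cox8a (465), Cox4i1 (382), Cox6b1 (250) and Sdhd (234). Cox6a1 was the highest in each group, at 809, 839, 861 and 744 CPM per kilobase in DSS DKO, DSS WT, baseline DKO and baseline WT. Summed over the nuclear members, levels were 14826, 15690 and 17453 CPM in DSS DKO, 17757, 18414 and 17938 CPM in DSS WT, 14077, 13163 and 17953 CPM in baseline DKO, and 12761 and 14652 CPM in baseline WT. DSS WT was the highest and tightest group, and baseline DKO replicate 3 stood apart from replicates 1 and 2, which are the libraries with high Rn18s-rs5. Counted among nuclear RNA without the mitochondrial genes and Rn18s-rs5, the nuclear members took 1.70 to 1.94% in DSS DKO, 2.03 to 2.10% in DSS WT, 1.497 to 1.98% in baseline DKO and 1.51 to 1.68% in baseline WT.

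**Figure D2:**
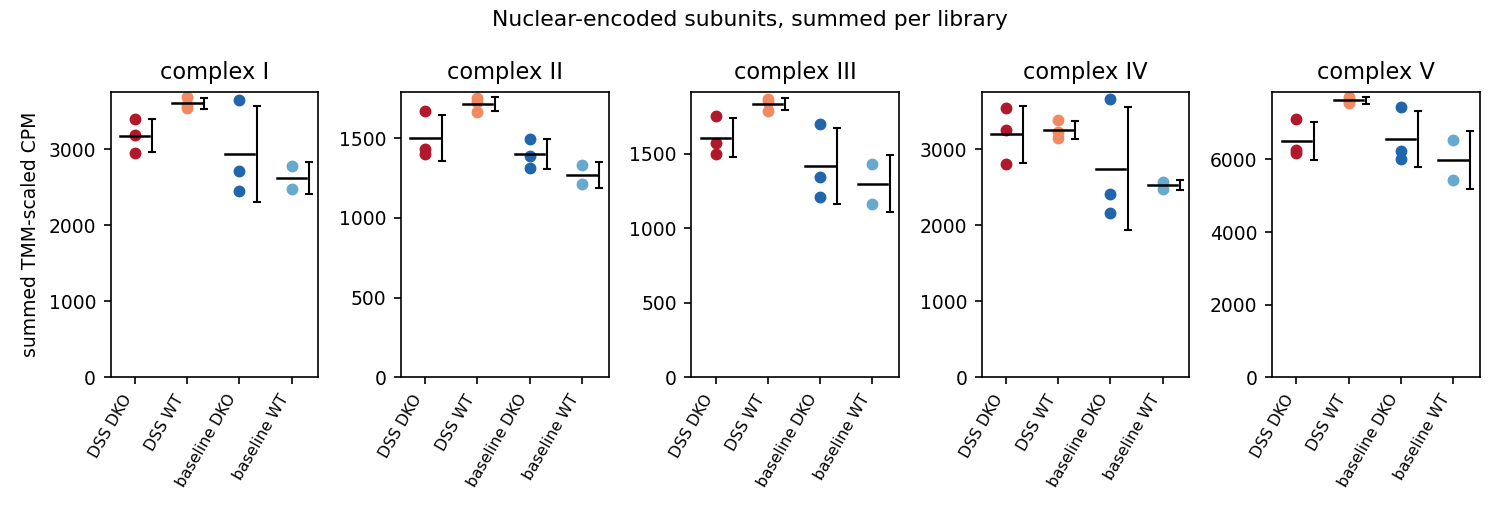
Summed TMM-scaled CPM of the nuclear members of each complex, 1 point per library, with the group mean as a line and its SD as a bar beside it. In all 5 complexes the 3 DSS WT libraries lie above both baseline WT libraries, and the baseline DKO libraries are spread widely, with replicate 3 highest.

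Where a subunit has several isoforms, the widely expressed ones were the abundant ones. Cox4i1 averaged 728 ± 128, 690 ± 49.1, 473 ± 115 and 420 ± 25.7 CPM in DSS DKO, DSS WT, baseline DKO (SD, n = 3 each) and baseline WT (SD, n = 2), while its hypoxia-inducible partner Cox4i2 stayed between 0.0367 and 0.263 CPM. The heart and muscle isoforms were near the floor as well, with Cox6a2 at 0.0392 to 0.372 CPM, Cox8b at 0 to 0.213 CPM and Ndufa4l2, known for its induction by hypoxia, at 0 to 0.155 CPM. Cox8c and Cox7b2, testis isoforms, had 0 counts in every library, where 3 counts would be 0.0569 to 0.0721 CPM, a floor that covers counting error only. Cox6b2, another testis isoform, was at 1.18 to 3.59 CPM, and Cox7a1, the muscle and brown fat isoform of Cox7a, at 9.46 to 27.03 CPM, so that Cox7a1 was the most abundant of these tissue-restricted genes. The 3 genes for the same subunit c of ATP synthase were all present, with Atp5g3 at 358 ± 10.6, 371 ± 6.49, 418 ± 57.5 and 396 ± 54.1 CPM, Atp5g1 at 237 ± 3.82, 276 ± 6.03, 217 ± 73.4 and 178 ± 2.19 CPM, and Atp5g2 at 68.9 ± 13.6, 59.3 ± 3.24, 58.5 ± 16.2 and 44.5 ± 2.89 CPM in the same order of groups.

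**Figure D3:**
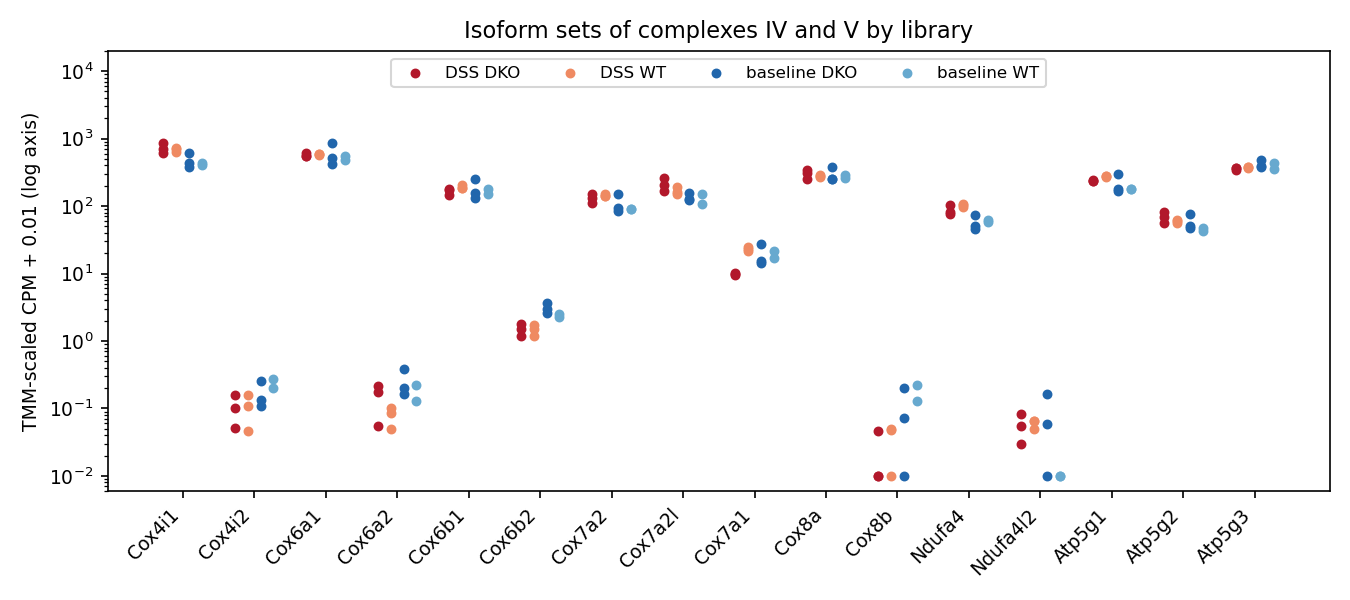
TMM-scaled CPM plus 0.01 on a log axis for the isoform sets of complexes IV and V, 1 point per library. Cox4i1 lies between 382 and 864 CPM, while Cox4i2, Cox6a2, Cox8b and Ndufa4l2 lie under 1 CPM, and the 3 DSS DKO libraries are the lowest for Cox7a1.

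After DSS, 4 of the 6 mitochondrially encoded complex I genes tested fell in DKO and 5 of the 6 in WT. In DKO, 5 of the 8 mitochondrially encoded genes tested were lower, mt-Cytb of complex III among them, and 0 higher after DSS than at baseline. In WT, 5 were lower and 0 higher. Over all genes tested, 11% were lower and 12.6% higher in DKO, and 16.5% were lower and 16.9% higher in WT. The median log2 fold change of the 8 genes was -0.62 in DKO and -0.70 in WT, against 0.01 and -0.01 over all genes tested.

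Counts at mt-Nd6, the subunit gene on the other mtDNA strand (chrM:13552-14070, minus strand), fell most in WT. The strand setting of the counting is not given, so reads of its own RNA and of antisense RNA cannot be told apart. mt-Nd6 was at 345, 429 and 377 CPM in DSS WT, and at 1192 and 1264 CPM in baseline WT, so the groups lay far apart (log2 fold change -1.68 ± 0.21 SE, adjusted p = 0.00036). In DKO it was at 330, 413 and 323 CPM after DSS, and at 655, 1160 and 734 CPM at baseline, again without overlap (-1.26 ± 0.20, adjusted p = 0.0012).

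mt-Nd2, a membrane subunit of the proton-pumping arm of complex I, was at 1285, 1681 and 1114 CPM in DSS DKO, and at 2516, 3950 and 3522 CPM in baseline DKO (-1.29 ± 0.22, adjusted p = 0.0020). In WT it was at 1420, 2153 and 1717 CPM after DSS, and at 4045 and 3002 CPM at baseline (-0.999 ± 0.24, adjusted p = 0.0086). The highest DSS library lay below the lowest baseline library in each genotype. mt-Nd4, another subunit of that arm, fell in DKO (-1.04 ± 0.22, adjusted p = 0.0055) and in WT (-0.85 ± 0.24, adjusted p = 0.017), with 1414 to 1820 and 1593 to 2076 CPM after DSS, and 2250 to 3999 and 2809 to 4053 CPM at baseline. mt-Nd5 fell by less, by 0.56 on the log2 scale in DKO (adjusted p = 0.031) and by 0.61 in WT (adjusted p = 0.024).

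The other abundant genes were called in 1 genotype or in none. mt-Nd1 was lower after DSS in WT (3630, 5696 and 4949 CPM after DSS, and 8053 and 8413 CPM at baseline, -0.79 ± 0.22, adjusted p = 0.018). In DKO its groups overlapped (4446, 6240 and 6438 CPM after DSS, and 6417, 9049 and 9075 CPM at baseline, -0.52 ± 0.20, adjusted p = 0.082). mt-Cytb was lower after DSS in DKO (7453, 9970 and 8254 CPM after DSS, and 10860, 14806 and 15300 CPM at baseline, -0.67 ± 0.20, adjusted p = 0.027), and did not pass in WT (7242, 11247 and 9956 CPM after DSS, and 15175 and 12642 CPM at baseline, -0.55 ± 0.22, adjusted p = 0.067). The difference between the genotypes in the response to DSS was tested by the interaction, and its adjusted p was 0.68 for mt-Nd1, 0.86 for mt-Cytb and at least 0.47 for all 8 genes. mt-Co1 was not called in DKO (0.25 ± 0.18, adjusted p = 0.33) or in WT (0.35 ± 0.20, adjusted p = 0.20), and its groups overlapped in each genotype. mt-Nd3, at 0.0929 to 1.12 CPM, was not called either.

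Baseline WT has 2 libraries, so a fit without 1 of them has a single baseline WT library, and calls can be lost through that alone. Over the 11 fits that leave out 1 library, log2 fold changes in WT were -1.76 to -1.62 for mt-Nd6 and -1.18 to -0.77 for mt-Nd2. They were -1.08 to -0.565 for mt-Nd4, -0.93 to -0.65 for mt-Nd1 and -0.78 to -0.40 for mt-Nd5. In DKO, 3 of the 5 calls were past the threshold without DSS DKO replicate 1 or 3, or without baseline DKO replicate 2. mt-Nd6 passed in all 11 fits that leave out 1 library, in each genotype.

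Ratios within a library need no scaling between libraries. The ratio of mt-Co1 to mt-Nd6 counts was 129 to 200 in DSS DKO, 128 to 159 in DSS WT, 42.5 to 68.6 in baseline DKO and 35.2 to 36.6 in baseline WT. The ratio of mt-Co1 to mt-Nd2 was 31.6 to 58.2 in DSS DKO, 31.2 to 32.6 in DSS WT, 12.5 to 16.8 in baseline DKO and 10.4 to 15.4 in baseline WT. The ratio of mt-Co1 to mt-Nd1, a gene that shares no 50-base stretch with a nuclear gene, was 8.52 to 11.3, 11.3 to 12.2, 5.44 to 6.58 and 5.21 to 5.51 in the same groups. Every DSS library thus lay above every baseline library in these ratios, for which no test was made. A share of 51.1% of the 50-base stretches of mt-Co1 is found in nuclear genes, and its part in these ratios was not tested.

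Among nuclear subunits more rose than fell after DSS in WT. In WT, 31 of the 81 nuclear members tested were higher after DSS than at baseline and 1 was lower, where 16.9% and 16.5% of all genes were. The median log2 fold change of the 81 was 0.41, and -0.01 over all genes tested. In DKO, 4 were higher and 3 lower, where 12.6% and 11% of all genes were, and the median was 0.14, with 55 of the 81 positive. The interaction, which tests the difference between the genotypes, called 0 nuclear members. By complex, the members called higher in WT were 16 of 36 tested in complex I, 3 of 4 in complex II, 3 of 8 in complex III, 3 of 16 in complex IV and 6 of 17 in complex V. The count in complex IV is near the 16.9% of all genes and is no result about that complex. Of the 31, 21 share under 10% of their 50-base stretches, and overlap under 10% of their exons, with another annotated gene, as do 57 of the 81 tested.

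In complex I, Ndufb8, an accessory subunit of the membrane arm (chr19:44548572-44555440, minus strand of GRCm38), had the lowest p. Its level was 109, 109 and 106 CPM in DSS WT, and 62.6 and 55.4 CPM in baseline WT, with no overlap (log2 fold change 0.87 ± 0.17 SE, adjusted p = 0.0034). The DKO level was 83.7, 94.9 and 98.1 CPM after DSS, and 67.8, 61.5 and 96.7 CPM at baseline, where replicate 3 reached the DSS range (0.29 ± 0.15, adjusted p = 0.18). Ndufs8, an iron-sulphur subunit of the peripheral arm, was at 127, 130 and 129 CPM in DSS WT, and at 63.3 and 74.0 CPM in baseline WT (0.90 ± 0.19, adjusted p = 0.0044). In DKO it was at 86.4, 95.4 and 92.6 CPM after DSS, and at 86.0, 70.9 and 123 CPM at baseline, so that the DSS values lay inside the baseline range (-0.03 ± 0.17, adjusted p = 0.91). Ndufb6, Ndufa9 and Ndufs4, which serve the assembly and stability of the complex, rose in WT by 0.95, 0.64 and 0.79 on the log2 scale. Of these, Ndufb6 shares 31.6% of its 50-base stretches with Smim27. Ndufs4 also rose in DKO, to 68.7, 73.1 and 78.1 CPM after DSS, against 49.1, 36.6 and 67.8 CPM at baseline (0.52 ± 0.17, adjusted p = 0.0496). The Ndufs4 call in DKO was kept in 1 of the 11 fits that leave out 1 library.

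In complex II, which feeds electrons from the citric acid cycle into the chain, Sdhb, Sdhd and Sdha, named after their values were seen, rose in WT, and Sdhc was not called there. Sdhb, the iron-sulphur subunit, was at 322, 331 and 317 CPM in DSS WT, and at 187 and 221 CPM in baseline WT (0.66 ± 0.18, adjusted p = 0.015). Sdhd, a membrane anchor, rose by 0.50 and Sdha, the flavoprotein, by 0.41 on the log2 scale in WT. Sdhc, the other membrane anchor, fell in DKO (150, 152 and 183 CPM after DSS, and 186, 223 and 215 CPM at baseline, -0.37 ± 0.12, adjusted p = 0.049), and was 0.11 ± 0.14 in WT (adjusted p = 0.55). Its call in DKO was kept in 4 of the 11 fits that leave out 1 library.

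In complex III, Uqcrc2, a core subunit that anchors the dimer, was at 480, 503 and 489 CPM in DSS WT, and at 286 and 346 CPM in baseline WT (0.63 ± 0.14, adjusted p = 0.0055). Its exons overlap those of Pdzd9, with which it shares 17.6% of its 50-base stretches. Uqcrq and Uqcr11, small accessory subunits chosen to be named after their values were seen, rose by 0.87 and 0.99. All 8 members were positive in WT and all 8 in DKO, where 0 were called and the median was 0.25, and 0 had an unadjusted p under 0.05.

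In complex IV, Cox4i1 and Ndufa4 were called higher after DSS in both genotypes. Cox4i1, the widely expressed form of the largest nuclear subunit, was at 609, 711 and 864 CPM in DSS DKO, and at 434, 382 and 603 CPM in baseline DKO (0.62 ± 0.17, adjusted p = 0.022). In WT it was at 634, 709 and 727 CPM after DSS, and at 402 and 438 CPM at baseline (0.72 ± 0.20, adjusted p = 0.016), so that all DSS libraries lay above all baseline libraries of the same genotype. Ndufa4, long listed with complex I and now placed in complex IV, rose by 0.63 ± 0.17 in DKO (adjusted p = 0.022) and by 0.76 ± 0.20 in WT (adjusted p = 0.012). Cox7a2 rose in WT (0.67 ± 0.22, adjusted p = 0.032). Cox7a2l, which takes part in joining complexes III and IV into supercomplexes, rose in DKO (0.63 ± 0.18, adjusted p = 0.025) and was 0.39 ± 0.20 in WT (adjusted p = 0.15). Cox6b2 fell in DKO, to 1.48, 1.78 and 1.18 CPM after DSS, against 3.59, 2.57 and 2.95 CPM at baseline (-1.03 ± 0.25, adjusted p = 0.012), and was -0.69 ± 0.27 in WT (adjusted p = 0.070). Cox6a1, Cox6b1 and Cox8a were not called in either genotype, with log2 fold changes of -0.09, -0.12 and 0.04 in DKO and 0.17, 0.23 and 0.02 in WT.

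In complex V, the subunit c gene Atp5g1 was at 280, 269 and 278 CPM in DSS WT, and at 180 and 177 CPM in baseline WT (0.63 ± 0.20, adjusted p = 0.033). Its paralogs Atp5g2 (0.41 ± 0.21, adjusted p = 0.15) and Atp5g3 (-0.09 ± 0.13, adjusted p = 0.62) were not called in WT. Atp5g3 shares no 50-base stretch with another annotated nuclear gene, while Atp5g1 shares 11.1%, most with Gm10039, and Atp5g2 38.4%, most with Gm10175, so the levels of Atp5g1 and Atp5g2 are less certain. The 1 nuclear member that fell in WT was Atp5l, subunit g of the membrane part. It was at 8.39, 5.67 and 6.62 CPM in DSS WT, and at 12.0 and 11.3 CPM in baseline WT (-0.76 ± 0.19, adjusted p = 0.010). Atp5l shares 9.99% of its 50-base stretches with nuclear genes, among 642 genes in all and most with Gm10221. It averaged 1.31 CPM per kilobase over all libraries, so its level is less certain too.

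**Figure D4:**
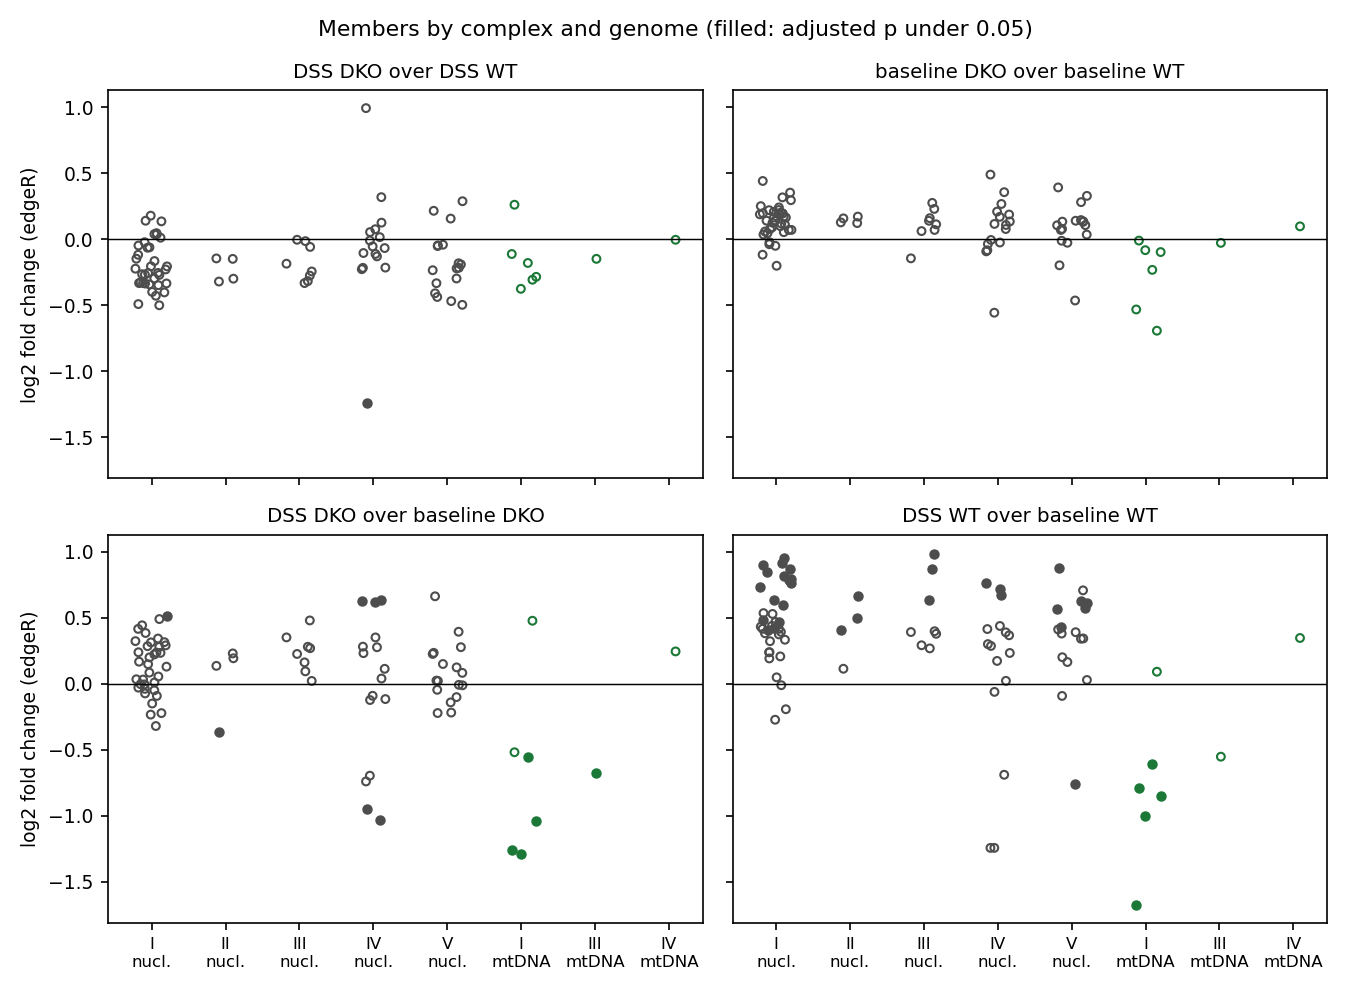
edgeR log2 fold changes of the tested members by complex and genome in 4 comparisons, 1 point per gene, filled where the adjusted p was under 0.05. In DSS WT over baseline WT the nuclear members lie mostly above 0, with 31 called higher, and 5 mitochondrially encoded members of complex I are called lower, and in DSS DKO over DSS WT most nuclear members lie just below 0 with 1 called.

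The size of the WT count depended on single libraries. A fit without 1 of the 2 baseline WT libraries has a single library in that group, and calls can be lost through that alone. The same holds for baseline DKO without both libraries of high Rn18s-rs5. Without baseline WT replicate 1, 2 nuclear members were called higher, 17 without baseline WT replicate 2, 13 without DSS WT replicate 2, 12 without DSS WT replicate 3 and 49 without baseline DKO replicate 3, which enters through the shared estimate of the spread. In DKO, the 4 calls became 35 without baseline DKO replicate 3, 1 without DSS DKO replicate 2 and 0 without baseline DKO replicate 1 or 2, without DSS DKO replicate 3, or without both baseline DKO libraries of high Rn18s-rs5. The call of Ndufb8 in WT held in all 11 fits.

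In complexes I and III, the ratio of mitochondrially encoded to nuclear counts was lower in the DSS libraries, a description for which no test was made. The log2 ratio of mitochondrially encoded to nuclear counts in complex I was 1.83, 2.14 and 1.87 in DSS DKO, 1.53, 1.98 and 1.85 in DSS WT, 2.58, 3.28 and 2.54 in baseline DKO, and 3.27 and 2.88 in baseline WT. In complex III it was 2.24 to 2.66 in DSS DKO, 1.97 to 2.59 in DSS WT, 3.02 to 3.61 in baseline DKO and 3.14 to 3.70 in baseline WT. Every DSS library lay below every baseline library in these 2 complexes, in which the counted mitochondrial genes are the mt-Nd genes and mt-Cytb. In complex IV, where mt-Co1 makes up nearly all counts, the groups overlapped (means 4.13 ± 0.08, 4.09 ± 0.26, 4.14 ± 0.36 and 4.13 ± 0.06 in DSS DKO, DSS WT, baseline DKO and baseline WT, SD). Over all members the log2 ratio averaged 2.26 ± 0.06, 2.10 ± 0.28, 2.44 ± 0.26 and 2.55 ± 0.16 in the same groups, a difference of -0.18 between DSS and baseline in DKO and of -0.46 in WT. Without mt-Co1 these differences were -0.80 and -1.12. The ratio for complex V is not given, since mt-Atp6 and mt-Atp8 had 0 counts in most libraries.

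**Figure D5:**
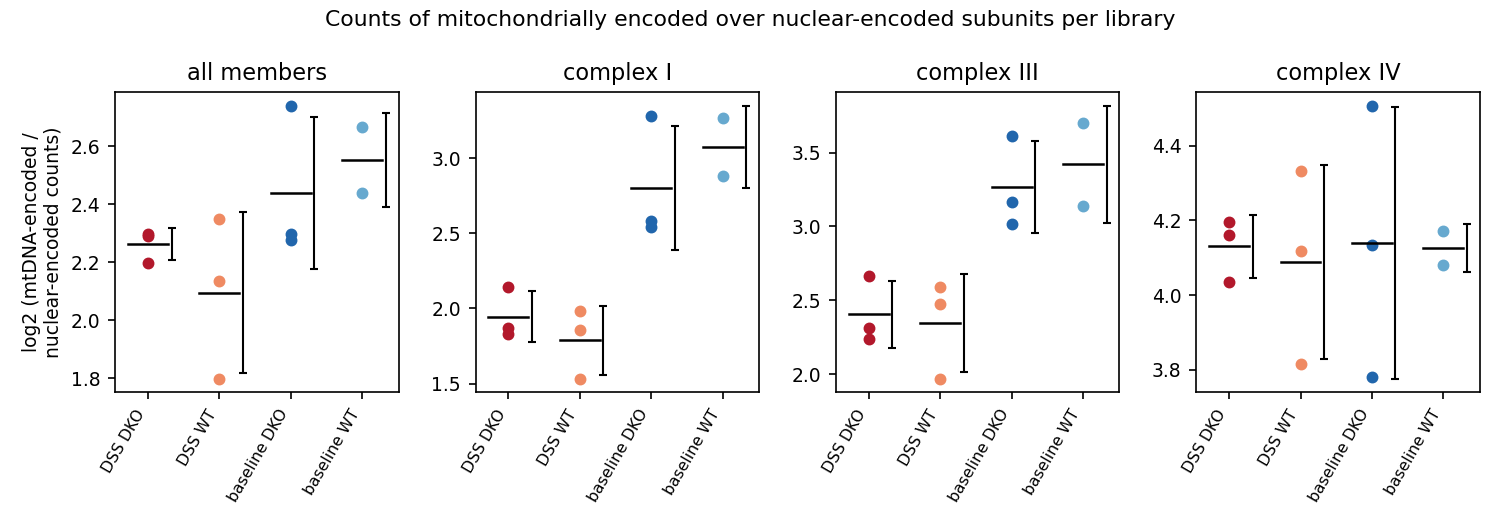
log2 ratio of mitochondrially encoded to nuclear-encoded counts per library, over all members and in complexes I, III and IV, with the group mean as a line and its SD as a bar. In complexes I and III the 6 DSS libraries lie below the 5 baseline libraries, and in complex IV the groups overlap.

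Between the genotypes after DSS, 1 nuclear member differed. Of the 81 tested, 0 were higher and 1 was lower in DKO, where 5.26% of all genes were higher and 5.98% lower, and of the 8 mitochondrially encoded members 0 were called, with 0 at an unadjusted p under 0.05. The member called was Cox7a1 (chr7:30184144-30186078, plus strand). The DSS DKO libraries had 9.46, 10.2 and 9.89 CPM, and the DSS WT libraries had 24.7, 23.3 and 21.8 CPM, so the groups were far apart (log2 fold change -1.24 ± 0.22 SE, adjusted p = 0.0050), and the call held in all 11 fits that leave out 1 library. At baseline it was at 15.5, 14.4 and 27.03 CPM in DKO, and at 21.3 and 16.8 CPM in WT, where the groups overlapped (-0.00 ± 0.24, adjusted p = 1). It fell after DSS in DKO (-0.95 ± 0.22, adjusted p = 0.0090) and was 0.29 ± 0.24 in WT (adjusted p = 0.37). The interaction was -1.23 ± 0.32 with an adjusted p of 0.074, so the difference between these responses did not pass the threshold.

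Most other nuclear members were slightly lower in DKO after DSS without being called. The log2 fold change was negative in 65 of the 81, with a median of -0.20 against 0.03 over all genes tested. An unadjusted p under 0.05 was reached by 18 of the 81 and by 5148 of the 19267 genes tested. The count of 18 is thus no result about the members. Cox7a1 is among these 18, and 1 of them, Atp5d, had a positive fold change (0.29 ± 0.12, adjusted p = 0.13). Ndufs1, the largest iron-sulphur subunit of complex I, came closest (-0.33 ± 0.10, adjusted p = 0.050), followed by Ndufs8 (-0.49 ± 0.17, adjusted p = 0.079) and Ndufb6 (-0.50 ± 0.18, adjusted p = 0.10). These 4 genes beside Cox7a1 were named after their values were seen. By complex, the median was -0.24 in complex I, -0.22 in II, -0.21 in III, -0.06 in IV and -0.22 in V, and all members of complexes II and III were negative. The count of members called lower was 7 without baseline DKO replicate 3, 3 without baseline DKO replicate 2, 2 without either baseline WT library or without DSS DKO replicate 3, and 7 without both baseline DKO libraries of high Rn18s-rs5.

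At baseline 0 members of either genome were called, where 0.0104% of all genes were higher and 0.0156% lower in DKO. DESeq2 also called 0, and at an unadjusted p under 0.05 there were 3 nuclear members and 1 mitochondrially encoded member, mt-Nd6. Over all genes tested, 751 of 19267 were under it, so these counts are no result about the members. mt-Nd6 was at 655, 1160 and 734 CPM in baseline DKO, and at 1192 and 1264 CPM in baseline WT, which did not overlap (-0.53 ± 0.21, unadjusted p = 0.028, adjusted p = 1). Among nuclear members 65 of 81 were positive, with a median of 0.13 against 0.01 over all genes. Summed over the nuclear members, baseline DKO replicates 1 and 2 (14077 and 13163 CPM) lay within the baseline WT range (12761 to 14652 CPM). Only replicate 3 (17953 CPM) lay above that range.

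The interaction of genotype and DSS tests whether the difference between DSS and baseline libraries is the same in DKO and WT. DSS and sex cannot be told apart in it either. It called 0 members, where it called 0.773% of all genes higher and 0.794% lower. DESeq2 called 2 nuclear members lower, and 14 nuclear members and 0 mitochondrially encoded members had an unadjusted p under 0.05. Over all genes tested, 3636 of 19267 did, so the 14 are no result about the members. The interaction was negative in 74 of the 81 nuclear members with a median of -0.28, against 0.02 over all genes. Baseline DKO replicate 3, which had the highest nuclear sum of its group, enters these values, and its part in them was not tested. The interaction was most negative in Cox7a1 and in Ndufs8 (-0.93 ± 0.25, adjusted p = 0.079). Among the 8 mitochondrially encoded members 4 were negative and 4 positive. The number of nuclear members called was 1 without baseline DKO replicate 2 and 6 without both baseline DKO libraries of high Rn18s-rs5.

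Promoters of the nuclear members were searched for the sites of 4 factors known to act on respiratory genes, because 31 of these members rose in WT. RefSeq (GRCm38.p6) gave windows of 300 bases, from 250 before to 50 after the start, for 69 of the 90 genes (74 windows). On both strands, the NRF1 core GCATGCGC was found in 13.5% of the members' windows and 2.71% of all 32851 windows, and the YY1 motif AAGATGGCG in 9.46% and 1.40%. The ETS motif CCGGAAGT, read by GABP, was in 6.76% and 3.89%, and the ERR motif TCAAGGTCA in 2.70% and 0.423%. None of these letter strings contains another, but the NRF1 string can overlap its own reverse complement, and such a window was counted once. In all, 23 of the 69 genes held at least 1 of them. The NRF1 string was in 4 of the 26 genes called higher in WT that have a window (15.4%) and in 6 of the 41 other tested genes (14.6%). In the same sets the ETS string was in 3 (11.5%) and 2 (4.88%), the YY1 string in 3 (11.5%) and 4 (9.76%), and the ERR string in 1 (3.85%) and 1 (2.44%), counts too small to compare.

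Windows of 4 members called higher in WT, 1 for each motif and 1 with a pair, are shown 5′ to 3′ with the motifs found in capitals. Uqcr11 lies at chr10:80406772-80407071 (minus strand) with the ETS and NRF1 strings, Sdhb at chr4:140961021-140961320 (plus strand) with the NRF1 string, Ndufs4 at chr13:114388045-114388344 (minus strand) with the YY1 string, and Sdhd at chr9:50603800-50604099 (minus strand) with the ERR string on the other strand.
Uqcr11: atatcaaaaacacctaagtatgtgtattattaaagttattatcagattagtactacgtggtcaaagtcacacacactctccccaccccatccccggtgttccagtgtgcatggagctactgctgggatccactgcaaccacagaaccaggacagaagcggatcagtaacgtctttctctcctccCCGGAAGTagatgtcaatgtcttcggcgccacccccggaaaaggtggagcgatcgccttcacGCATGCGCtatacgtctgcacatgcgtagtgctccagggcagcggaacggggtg
Sdhb: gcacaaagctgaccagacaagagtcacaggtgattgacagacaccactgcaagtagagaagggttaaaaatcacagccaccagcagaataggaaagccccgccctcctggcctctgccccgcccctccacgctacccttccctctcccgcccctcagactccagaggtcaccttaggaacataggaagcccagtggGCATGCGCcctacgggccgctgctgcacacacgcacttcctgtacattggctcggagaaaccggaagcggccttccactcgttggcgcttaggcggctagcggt
Ndufs4: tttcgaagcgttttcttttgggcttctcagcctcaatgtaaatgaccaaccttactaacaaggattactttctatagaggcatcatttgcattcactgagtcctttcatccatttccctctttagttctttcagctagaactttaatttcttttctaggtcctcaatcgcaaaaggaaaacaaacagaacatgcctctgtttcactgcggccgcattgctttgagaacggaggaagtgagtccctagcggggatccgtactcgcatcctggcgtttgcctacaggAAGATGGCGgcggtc
Sdhd: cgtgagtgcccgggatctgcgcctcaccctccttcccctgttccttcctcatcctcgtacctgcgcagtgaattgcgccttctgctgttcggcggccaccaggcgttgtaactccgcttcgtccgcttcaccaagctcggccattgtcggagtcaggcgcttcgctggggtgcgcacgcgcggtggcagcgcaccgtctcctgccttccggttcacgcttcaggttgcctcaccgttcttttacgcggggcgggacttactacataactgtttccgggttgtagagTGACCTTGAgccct

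The microRNAs deleted in DKO share 1 seed. Their mature sequences, from RefSeq on GRCm38.p6, are given with the seed (bases 2 to 8) in capitals. miR-181a-5p comes from chr1:137966468-137966490 and chr2:38852741-38852763 and miR-181b-5p from chr1:137966650-137966673 and chr2:38853845-38853868, all on the plus strand. miR-181c-5p and miR-181d-5p, from chromosome 8 and outside the deleted clusters, have the same seed.
miR-181a-5p: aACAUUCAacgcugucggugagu
miR-181b-5p: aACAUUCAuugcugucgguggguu

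Sites for this seed were less frequent in the 3′ UTRs of members than over all genes, a description with no test. A site was a match to bases 2 to 8 (TGAATGT) or to bases 2 to 7 followed by an A (GAATGTA). Of the 80 nuclear members tested that have an annotated 3′ UTR, 5 held a site of either kind (6.25%), where 3468 of the 14532 genes with a UTR did (23.9%). The members' UTRs were also shorter, with a median of 272 bases against 1289. The 5 were Sdha, Cox5b, Atp5l, Atp5g2 and Atp5md, of which Cox5b held 2 sites of the second kind alone and no match to the whole seed. None of the 5 was called between DKO and WT after DSS, with log2 fold changes of -0.14 (Sdha), -0.07 (Cox5b), 0.16 (Atp5l), 0.22 (Atp5g2) and -0.41 (Atp5md), or at baseline. The sites in Sdha and Atp5g2 match bases 2 to 8, which are in capitals.
Sdha: acttctcactgTGAATGTaactagtttct
Atp5g2: ccctgcttgttTGAATGTtggcattaagg

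The lists of genes that build or serve the chain were chosen with results of these data known. Their counts stand against 5.26% of all genes higher and 5.98% lower between DKO and WT after DSS, 12.6% higher and 11% lower after DSS in DKO, and 16.9% higher and 16.5% lower after DSS in WT. Among 19 complex I assembly factors tested, 4 were lower and 0 higher in DKO than in WT after DSS (Tmem70, Ndufaf5, Timmdc1 and Ndufaf4, with log2 fold changes of -0.52, -0.75, -0.49 and -0.62). After DSS, 2 of the 19 were higher in DKO and 11 higher and 1 lower in WT, where Ndufaf5 rose by 1.12 and Ndufaf6 by 1.37 and Dmac2 fell by 0.65. Of 22 complex IV assembly factors tested, 2 were higher after DSS in DKO and 10 were higher and 2 lower in WT, with Cox14 up by 1.03, Cox11 by 0.91, Taco1 by 0.97 and Cox15 down by 0.56. Of 14 assembly factors of complexes II, III and V, 1 was higher in DKO and 6 in WT, among them Uqcc1 (0.64) and Atpaf1 (0.78 in WT and 0.74 in DKO). Between DKO and WT after DSS, 1 gene of each of these 2 lists was lower, Sco1 (-0.39) and Uqcc1 (-0.45).

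Cycs, cytochrome c, which carries electrons between complexes III and IV, averaged 206 ± 16.9 CPM in DSS DKO, 300 ± 15.1 CPM in DSS WT, 139 ± 33.9 CPM in baseline DKO and 122 ± 12.8 CPM in baseline WT. It was lower in DKO than in WT after DSS (-0.54 ± 0.16, adjusted p = 0.046), and rose after DSS in DKO (0.57 ± 0.16, adjusted p = 0.021) and in WT (1.30 ± 0.18, adjusted p = 0.00058). Of the 5 subunits and carriers in the same list, among them Ndufab1 (0.48 in WT), Atpif1, the ATP synthase inhibitor, and Atp5md, which is also a member by name, 1 was higher after DSS in DKO and 3 in WT. Atpif1 was not called in either.

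Of 17 genes for mtDNA maintenance and transcription, 2 were higher after DSS in DKO (Tfb2m by 0.57 and Primpol by 0.59) and 4 in WT (Mgme1 by 0.95, Tfb2m by 0.73, Tfam by 0.67 and Mterf4 by 0.54), and 0 were lower. With 12.6% and 16.9% of all genes higher, these counts lie near the share over all genes and are no result about the list. Tfam packages mtDNA and starts its transcription with Tfb2m. Of 22 genes for mitochondrial RNA processing and stability, 1 was higher and 1 lower after DSS in DKO, and 6 were higher and 3 lower in WT. With 11% of all genes lower in DKO and 16.5% in WT, the counts of lower genes are no result about this list. Fastk, whose mitochondrial form is known to be needed for mt-Nd6 messenger RNA, fell in DKO (-0.74 ± 0.21, adjusted p = 0.025) and in WT (-1.50 ± 0.23, adjusted p = 0.00095). Its part in the counts at mt-Nd6 was not tested. Between DKO and WT after DSS, Mgme1 was lower (-0.75), and of the processing genes Tbrg4 (0.49) and Trub2 (0.56) were higher and Pnpt1 (-0.65), Ptcd3 (-0.41) and Rexo2 (-0.51) lower.

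Of 14 regulators of mitochondrial biogenesis, 0 were higher and 2 lower in DKO than in WT after DSS. Esrrg, an estrogen-related receptor that binds respiratory gene promoters, was at 1.58 to 2.29 CPM in DSS DKO, 6.48 to 9.15 CPM in DSS WT, 12.1 to 12.98 CPM in baseline DKO and 12.7 to 14.5 CPM in baseline WT. It was lower in DKO after DSS (-2.07 ± 0.19, adjusted p = 0.00029), and fell after DSS in DKO (-2.69 ± 0.20, adjusted p = 1e-05) and in WT (-0.76 ± 0.20, adjusted p = 0.014). Creb1 was lower in DKO after DSS (-0.59 ± 0.11, adjusted p = 0.0079), and rose after DSS by 0.71 in DKO and 1.31 in WT. Ppargc1a rose in DKO (0.73 ± 0.19, adjusted p = 0.016), and in WT Perm1 fell by 1.77 and Yy1 by 0.75 while Sirt1 rose by 0.68 in DKO and by 0.52 in WT.

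Among 14 citric acid cycle genes, Cs, citrate synthase, fell after DSS in DKO (-0.64) and in WT (-0.47), while Dld, Idh3a and Idh3g rose in WT (0.69, 0.59 and 0.51). Idh3a (-0.59) and Dld (-0.37) were lower in DKO than in WT after DSS. Of 13 coenzyme Q genes, 2 were higher after DSS in DKO, and 4 were higher and 2 lower in WT. Of 17 carriers of the mitochondrial membranes, 3 were higher and 1 lower in DKO, and 2 were higher and 3 lower in WT, with Ucp2 lower in each (-0.65 and -0.76). Between DKO and WT after DSS, Coq8a (0.74) and the acylcarnitine carrier Slc25a20 (0.92) were higher and Coq10b (-0.56) lower. Of 6 published miR-181 targets with a mitochondrial function, Coq10b was the 1 called between the genotypes after DSS, and after DSS 1 was higher in DKO (Bcl2) and 4 in WT. At baseline 0 genes of these lists were called between the genotypes.

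Markers of several cell types differed in the same comparisons. Of all genes tested, 5.26% were higher and 5.98% lower in DKO than in WT after DSS. After DSS, 12.6% were higher and 11% lower in DKO, and 16.9% higher and 16.5% lower in WT. A single gene called in a marker list is near these shares and is no result about the list. Summed over 10 T cell genes, levels were 34.5 to 67.1 CPM in DSS DKO, 129 to 141 CPM in DSS WT, 27.5 to 38.6 CPM in baseline DKO and 24.8 to 46.9 CPM in baseline WT, and 9 of the 10 were lower in DKO after DSS. Summed over 8 neutrophil genes, levels were 158 to 222, 51.5 to 59.1, 32.7 to 43.3 and 35.4 to 37.8 CPM in the same groups, and 5 of the 8 were higher in DKO after DSS. Summed over 8 goblet cell genes, levels were 3906 to 4066, 6644 to 8244, 34634 to 39951 and 40337 to 40599 CPM. Of these 8, 6 were lower after DSS in DKO and 3 in WT, with median log2 fold changes of -1.58 and -0.55, so the sums fell by more than the median gene. Proliferation genes (8) summed to 434 to 759, 888 to 1067, 729 to 850 and 680 to 712 CPM, and 4 of the 8 were lower in DKO than in WT after DSS. Among 10 markers of absorptive colonocytes the genotype test after DSS called 5 higher and 1 lower in DKO. Their sums averaged 10734 ± 1232 CPM (SD) in DSS DKO and 11140 ± 177 CPM in DSS WT, so the sum was not higher in DKO. Of 8 crypt stem cell genes, 0 were higher and 3 lower in DKO than in WT after DSS. Of 10 general epithelial genes, 0 were called between the genotypes after DSS, and 4 were lower after DSS in DKO and 3 in WT. Of 8 macrophage and dendritic cell genes, 4 were higher after DSS in DKO and 5 in WT, and 1 was lower in DKO than in WT after DSS. Of 8 fibroblast genes, 3 were higher and 1 lower in DKO than in WT after DSS. The fibroblast sums averaged 290 ± 81.3 CPM (SD) in DSS DKO and 317 ± 25.2 CPM in DSS WT, so this sum was not higher in DKO either. None of these marker genes was at 0 in a whole group, and the part of these cell types in the results on respiratory genes was not tested.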

How the data were processed

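The members and gene lists were chosen with earlier results of these data known. Libraries were made from RNA captured with oligo(dT), per the labels' protocols, and STAR and build mm10 were used per the submitters' processing notes. The counter, its annotation, its strand setting and its treatment of reads that match several places have no statement in the labels or the table, so reads of overlapping, antisense and near-identical genes cannot be told apart. The deposited table holds raw counts of 54513 genes in 11 libraries.

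Counts were tested in R 4.3.3 with edgeR 4.0.16 (filterByExpr at a minimum count of 10, TMM, robust quasi-likelihood F-test, two-sided, Benjamini-Hochberg adjustment over 19267 genes, threshold 0.05) in 1 fit with 1 mean per group and a biological coefficient of variation of 0.234. SEs are log2 fold changes divided by the square root of F. Whether a library is 1 mouse is not labelled, and p-values reflect only the variation among these libraries, part of which may be technical. Named nuclear members were up to 6 called per comparison and direction with the lowest p and the isoform sets, with all 13 mitochondrially encoded genes and up to 4 called genes per list. Lengths, positions, transcripts and UTRs came from GENCODE M21, which names 98 of the 103 members by symbol once. The tests were checked on simulated counts. Alternatives were DESeq2 1.42.0, other scalings, no filter, the replicate number as a block, a fit of 2 groups, and leaving out libraries.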

Additional observations from a re-analysis of the deposited data

Results flagged for a closer look

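The difference between DSS and baseline libraries varied with genotype in 1 gene of the pathway lists, Esrrg, for which the test of this itself passed. The lists of cell type markers and sex-linked genes are left aside here. DSS libraries had a female and baseline libraries a male pattern of sex-linked genes, so DSS and sex cannot be told apart in this test. Its interaction of genotype and DSS was -1.94 ± 0.28 on the log2 scale (SE, edgeR adjusted p = 0.012), with the fall after DSS larger in DKO (-2.69) than in WT (-0.76). All 3 DSS DKO libraries (1.58 to 2.29 CPM) lay below all 3 DSS WT libraries (6.48 to 9.15 CPM), while the baseline groups overlapped (12.1 to 12.98 CPM in DKO and 12.7 to 14.5 CPM in WT). None of the 89 respiratory chain members tested passed this test with edgeR in the fit reported. An unadjusted p under 0.05 was found in 14 of the nuclear members and in 3636 of the 19267 genes tested. Groups of 2 or 3 libraries are too small for a check of single outlying libraries.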

How the results depend on the processing

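Counts below are of members called by edgeR unless DESeq2 is named. Fits without 1 baseline WT library, or without both baseline DKO libraries of high Rn18s-rs5, leave 1 library in that group. Between DKO and WT after DSS, nuclear members called lower were 1 as reported, 2 with DESeq2, 6 with no filter, 2 with library sizes without mitochondrial and ribosomal RNA, 7 with the 2 groups alone, 7 without both baseline DKO libraries of high Rn18s-rs5 (an alternative chosen after seeing the data), and 1 to 7 with 1 library left out, and 1 mitochondrially encoded member was called lower with no filter. After DSS in WT, nuclear members higher were 31, 48 with the 2 groups alone and 2 to 49 with 1 library left out, those lower were 1, 2 with DESeq2 and 0 to 1 with 1 library left out, mitochondrially encoded members lower were 5 and 1 to 5, and 1 was higher with no filter. After DSS in DKO, nuclear members higher were 4, 8 with no filter, 0 with the 2 groups alone, 0 without the pair of high Rn18s-rs5 and 0 to 35 with 1 library left out, those lower 3 and 2 to 3, and mitochondrially encoded members lower 5, 3 without that pair and 3 to 5 with 1 left out. In the interaction, nuclear members lower were 0, 2 with DESeq2, 2 with no filter, 6 without that pair and 0 to 1 with 1 left out. Baseline counts stayed at 0 in every setting run.

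With the replicate number as a block, nuclear members higher after DSS in DKO were 7 in place of 4, and no other count changed by over 1.5 times. The check of pairing does not settle whether the numbers pair the libraries. Of 15 same-numbered pairs, 4 had a correlation of deviations over 0.1 (range -0.07 to 0.30), and differently numbered pairs reached 0.198. Between DSS DKO and DSS WT the same-numbered correlations were 0.302, 0.0194 and 0.201.

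The log2 ratio of mitochondrially encoded to nuclear counts differed between DKO and WT after DSS by 0.17 (0.02 to 0.29 with 1 library left out) and by -0.15 where medians of log2 CPM replaced sums, a reversal. At baseline it was -0.11 (-0.26 to -8.5e-05, -0.28 with medians and -0.22 without mt-Co1). Between DSS and baseline it was -0.46 in WT (-0.58 to -0.31, -1.18 with medians and -1.12 without mt-Co1) and -0.18 in DKO (-0.26 to -0.02, -1.05 with medians and -0.80 without mt-Co1). mt-Co1 holds most mitochondrial counts, and sums weight it accordingly. The cause of the other changes was not tested. Of the tests of single members under settings other than leaving out 1 library, 339 kept their side of the threshold, 33 lost it, 6 gained it and 0 changed direction. Other scalings moved the median of all genes by under 0.1 and kept the majority direction of the nuclear members.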
